A study of Homo sapiens with 8 samples.

Results

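The alcohol dehydrogenase family comprised 7 genes (ADH1A, ADH1B, ADH1C, ADH4, ADH5, ADH6 and ADH7) of the 19775 measured on the arrays. Its members were the 15 probe sets, of 54675 in all, that the platform annotation pairs with exactly 1 gene symbol, that symbol being in the family. A probe set is a group of short oligonucleotides on the array whose signals are summarised to 1 value. The family was chosen by measured values, the differences between shKLHL23 and shLuc of ADH1B in Huh7 and of ADH4 in Hep-3B. Its knockdown differences are therefore given as descriptions, with no test. The difference between the control cells of both lines was tested for the other 5 genes. For ADH1B and ADH4 it uses the same shLuc arrays as the differences behind the choice, so it too is given for them as a description.

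Total RNA came from Huh7 and Hep-3B, established human hepatoma cell lines, grown in medium with 10% serum. The 4 groups, each with 2 arrays numbered 1 and 3 in the labels, were Huh7 with the shKLHL23 hairpin, Huh7 with shLuc, Hep-3B with shKLHL23 and Hep-3B with shLuc. All groups carried a lentiviral hairpin, given at a multiplicity of infection of 2, and puromycin selection began after 48 hours. The shLuc hairpin, which is aimed at luciferase, served as the control, and KLHL23 encodes a Kelch-like protein. The labels give the same knockdown hairpin name in both lines and do not say whether replicates were separate cultures. The p-values thus cover only the variation among these samples, and that may be technical.

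Alcohol dehydrogenases are cytosolic zinc enzymes that oxidise alcohols to aldehydes with NAD as the acceptor of hydrogen. In the liver the class I enzymes ADH1A, ADH1B and ADH1C carry out most oxidation of ethanol, and aldehyde dehydrogenases then oxidise the acetaldehyde to acetate. ADH4 is a class II liver enzyme that also oxidises larger alcohols, ADH5 is the widely expressed glutathione-dependent formaldehyde dehydrogenase, ADH6 is a less studied member with liver transcript, and ADH7 acts on ethanol and retinol in the lining of the upper digestive tract. The genes form a cluster on chromosome 4, in the order ADH5, ADH4, ADH6, ADH1A, ADH1B, ADH1C and ADH7 by RefSeq.

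Promoters of 5 members are shown because they include a pair of close relatives within class I, ADH4 and ADH6 with large differences between the lines, and the CpG-rich promoter of ADH5. Each is the RefSeq sequence of GRCh38.p14 on the minus strand, written 5′ to 3′, with 250 bases before the annotated start and 50 after it, and all 7 genes had an entry. Capitals mark every match, on either strand, to TATAAA (the TATA box), TTGCNNAA (C/EBP), GTAAACA (FOXA), GGGCGG (SP1) or CCAAT, and no matches overlapped. The positions are chr4:99290936-99291235 for ADH1A, chr4:99321352-99321651 for ADH1B, chr4:99144248-99144547 for ADH4, chr4:99219197-99219496 for ADH6 and chr4:99088739-99089038 for ADH5.
ADH1A: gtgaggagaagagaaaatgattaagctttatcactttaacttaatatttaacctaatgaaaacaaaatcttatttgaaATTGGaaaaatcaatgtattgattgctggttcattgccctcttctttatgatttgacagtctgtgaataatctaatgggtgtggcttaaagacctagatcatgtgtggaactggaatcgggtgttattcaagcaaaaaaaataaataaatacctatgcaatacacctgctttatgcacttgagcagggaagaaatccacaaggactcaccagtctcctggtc
ADH1B: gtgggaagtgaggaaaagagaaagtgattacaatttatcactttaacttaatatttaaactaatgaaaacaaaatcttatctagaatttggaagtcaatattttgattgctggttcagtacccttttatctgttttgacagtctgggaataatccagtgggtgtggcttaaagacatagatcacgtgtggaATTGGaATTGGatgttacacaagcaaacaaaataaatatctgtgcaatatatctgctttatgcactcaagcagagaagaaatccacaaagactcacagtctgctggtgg
ADH4: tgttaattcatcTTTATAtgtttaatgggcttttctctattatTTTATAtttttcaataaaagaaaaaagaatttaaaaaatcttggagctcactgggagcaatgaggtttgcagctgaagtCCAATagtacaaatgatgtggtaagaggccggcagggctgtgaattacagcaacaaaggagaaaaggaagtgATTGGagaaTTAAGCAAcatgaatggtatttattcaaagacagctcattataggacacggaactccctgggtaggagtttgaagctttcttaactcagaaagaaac
ADH6: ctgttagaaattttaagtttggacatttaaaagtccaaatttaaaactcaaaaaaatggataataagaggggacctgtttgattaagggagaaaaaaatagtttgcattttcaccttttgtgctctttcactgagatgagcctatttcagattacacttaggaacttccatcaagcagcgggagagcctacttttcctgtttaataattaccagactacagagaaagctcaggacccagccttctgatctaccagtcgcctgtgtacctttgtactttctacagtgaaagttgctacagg
ADH5: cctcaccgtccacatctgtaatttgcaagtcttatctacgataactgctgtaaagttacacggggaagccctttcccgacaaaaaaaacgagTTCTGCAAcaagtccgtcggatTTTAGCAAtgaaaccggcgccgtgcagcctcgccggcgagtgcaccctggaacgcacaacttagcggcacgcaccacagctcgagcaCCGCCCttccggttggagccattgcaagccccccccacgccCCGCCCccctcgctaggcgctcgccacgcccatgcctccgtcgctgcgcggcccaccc

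The ADH1A and ADH1B promoters were 87.6% identical over 291 aligned bases. ADH1C was 85.1% identical to ADH1A and 85.4% to ADH1B. Among the 5 promoters shown, that of ADH5 stood apart in base composition, with 61.3% G and C and 29 CpG dinucleotides. Over 35116 promoters of the same length the medians were 58.7% and 14 CpG, so ADH5 lay near the median in G and C. The other promoters shown lay below both medians. Those of ADH4 and ADH6 held 35.7% and 38% G and C, with 2 CpG each, and those of ADH1A and ADH1B held 35%, with 1 CpG each. A C/EBP match was present once in the ADH4 promoter and 2 times in that of ADH5, and 10.5% of all promoters held one. TATAAA matched 2 times in ADH4 (11.5% of all promoters). Both matches were on the reverse strand, at -238 and -207 from the annotated start, and are not called TATA boxes here. CCAAT matched once in ADH1A and 2 times each in ADH1B and ADH4 (34.6%), and GGGCGG 2 times in ADH5 (45%). GTAAACA (3.42% of all promoters) matched none of the 5, and the ADH6 window held no match to any of the 5 motifs. These matches describe letters in a short window and say nothing about binding.

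Array medians lay between 4.56 and 4.60 and lower quartiles between 3.08 and 3.12 on the log2 scale. KLHL23 was 5.78 and 5.88 in Huh7 shKLHL23, against 7.89 and 7.87 in Huh7 shLuc (fell by 2.05, SE 0.27, limma adjusted p = 0.00363). In Hep-3B it was 7.21 and 6.15 with shKLHL23, against 7.81 and 7.84 with shLuc (log2 difference -1.14, SE 0.27, limma adjusted p = 0.0833), so the knockdown arrays were lower in both lines but the Hep-3B difference did not pass the threshold. Replicates correlated at 0.994 to 0.997. The hepatocyte markers ALB, APOA1, APOB, TTR, SERPINA1, TF, FGB and AFP (8 of 8) were above the array median on all 8 arrays. Their summed level, as log2 of the sum, was 15.43 to 15.70 in Huh7 shKLHL23 and 15.51 in both Huh7 shLuc arrays, and 15.83 to 15.88 in Hep-3B shKLHL23 against 15.69 to 15.71 in Hep-3B shLuc. Of the markers of other cell types, KRT7, KRT19 and SOX9 (3 of 5, bile duct), COL1A1, PDGFRB and ACTA2 (3 of 5, stellate cells and fibroblasts), HBB and LYZ (2 of 4 measured, blood), PECAM1 (1 of 5, endothelium) and MUC5AC (1 of 5, upper digestive lining) were above the median on every array. The summed bile duct markers were lower in Huh7, at 11.68 to 11.70 in Huh7 shLuc against 12.53 to 12.57 in Hep-3B shLuc, and so were the stellate markers, at 7.67 to 7.75 against 9.44 to 9.53 in the same groups. Endothelial markers were lower too, at 6.52 to 6.69 in Huh7 shLuc against 7.61 to 7.68 in Hep-3B shLuc. Blood markers were higher in Huh7, at 12.12 to 12.14 in Huh7 shLuc against 11.10 to 11.22 in Hep-3B shLuc, and markers of the upper digestive lining overlapped, at 6.79 to 6.92 against 6.91 to 6.92 in the same groups. The part of these markers in the line difference of the family was not tested.

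Only ADH4, ADH5 and ADH6 had a probe set above the array median on all 8 arrays (2 probe sets each, 6 of 15). A further 5 probe sets lay below the lower quartile on every array, namely ADH1A 207820_at, ADH1B 209614_at and 243544_at, and ADH4 231675_s_at and 231703_s_at. The remaining 4, which report ADH1B, ADH1C and ADH7, met neither rule on all arrays. ADH7 210505_at lay below the lower quartile on 7 arrays, ADH1C 206262_at on 6, ADH1B 209613_s_at on 4 and ADH1B 209612_s_at on 1. Both of these ADH1B probe sets exceeded the array median on 2 arrays, those of Huh7 shKLHL23. No background calls are used here, so a low value is a dim signal and is not shown to be an absent transcript. Levels of different probe sets are not compared, since their oligonucleotides differ.

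**Figure D1:**
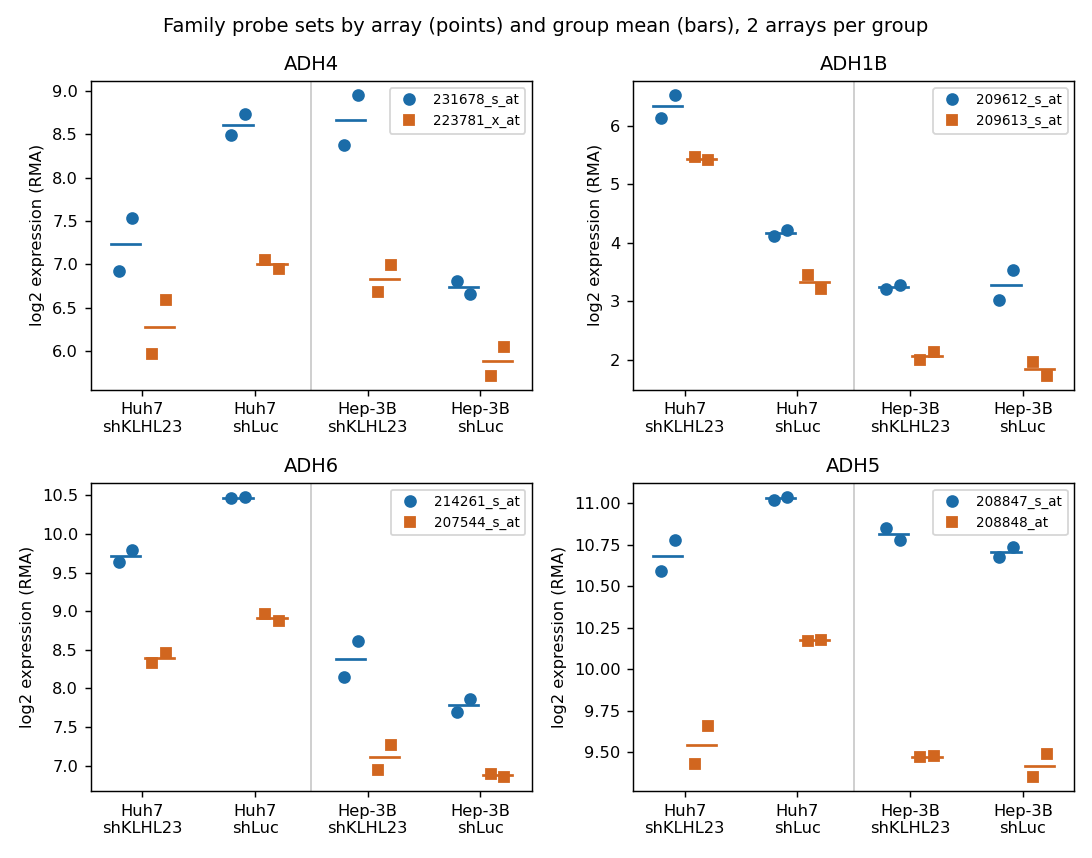
Log2 expression (RMA) of the 2 brightest probe sets each of ADH4, ADH1B, ADH6 and ADH5, with a point per array and a bar at the mean of the 2 arrays of each group. ADH4 and ADH6 probe sets lie lower in Huh7 shKLHL23 than in Huh7 shLuc and higher in Hep-3B shKLHL23 than in Hep-3B shLuc, while ADH1B lies highest in Huh7 shKLHL23.

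The first comparison asked how the control cells of the lines differed. Of the 7 probe sets of the 5 tested genes, 3 were higher in Huh7 shLuc than in Hep-3B shLuc, both of ADH6 and 1 of ADH5, and 0 were lower. With 4 probe sets of ADH1B and ADH4, which the fit also called but which share arrays with the choice of the family, 7 of the 15 were higher. The called ADH1B probe sets lay below the array median on every shLuc array. Over all 54675 probe sets, 25.8% were called in either direction by limma with Benjamini-Hochberg adjustment, and 12.9% were called higher in Huh7. The median log2 difference was 0.31 over the 15 probe sets and 0.001 over all. ADH6 differed most, by 2.69 on the log2 scale, and ADH1A, ADH1C and ADH7 did not pass the test. RNA came from whole cultures, so a smaller number of expressing cells and less RNA per cell cannot be told apart.

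**Figure D2:**
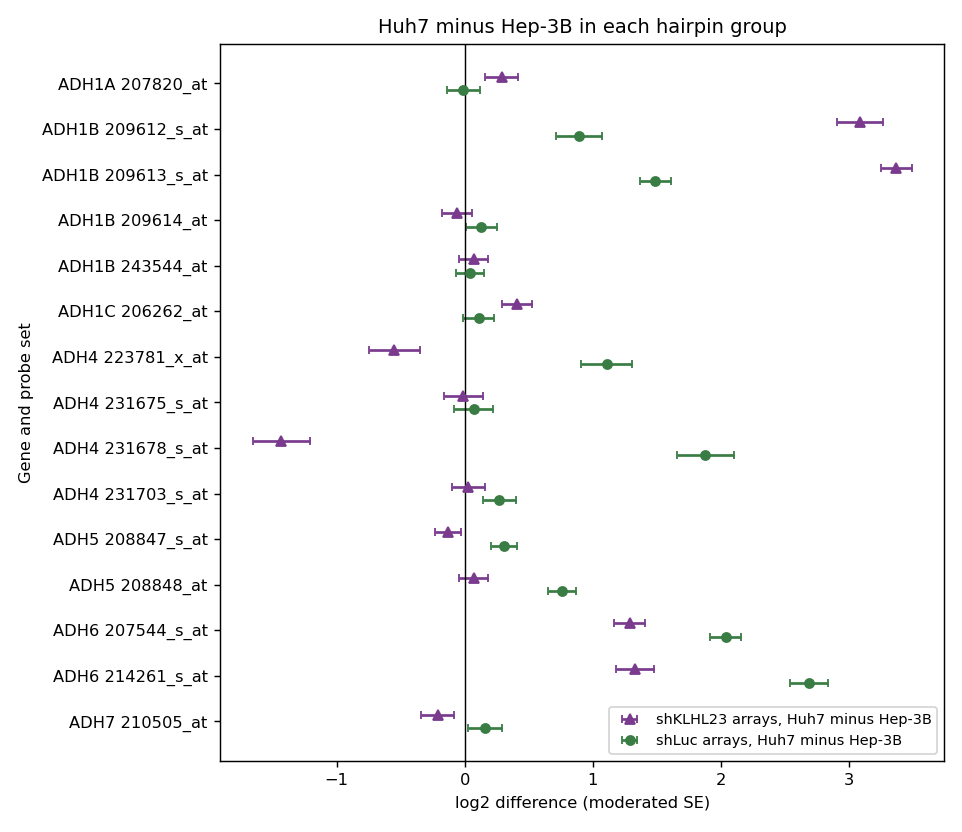
Log2 differences of each family probe set between the lines, Huh7 minus Hep-3B, in the shKLHL23 arrays (triangles) and in the shLuc arrays (circles), with moderated standard errors from limma and 2 arrays per group. The 2 brightest ADH4 probe sets lie right of 0 in the shLuc arrays (1.88 and 1.11) and left of 0 in the shKLHL23 arrays (-1.43 and -0.55), and both ADH6 probe sets lie right of 0 in each.

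Of the class I probe sets, the 2 brightest of ADH1B had the widest differences between groups. Probe set 209612_s_at measured 6.13 and 6.52 in Huh7 shKLHL23, 4.12 and 4.21 in Huh7 shLuc, 3.21 and 3.27 in Hep-3B shKLHL23, and 3.03 and 3.53 in Hep-3B shLuc. The second, 209613_s_at, measured 5.46 and 5.41 in Huh7 shKLHL23, 3.45 and 3.21 in Huh7 shLuc, 2.00 and 2.13 in Hep-3B shKLHL23, and 1.96 and 1.73 in Hep-3B shLuc. On both probe sets every Huh7 shKLHL23 array stood above every other array, the Huh7 shLuc arrays came next, and the Hep-3B arrays were lowest. The 4 Hep-3B arrays of 209613_s_at lay below the lower quartile, where RMA compresses differences.

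Between control cells, ADH1B was higher in Huh7 shLuc than in Hep-3B shLuc by 0.89 (SE 0.18, 1.85-fold) on 209612_s_at. On 209613_s_at it was higher by 1.49 (SE 0.12, 2.81-fold). In Huh7 the log2 difference between shKLHL23 and shLuc, which led to the choice of the family, was 2.16 (SE 0.18, 4.46-fold) on 209612_s_at and 2.10 (SE 0.12, 4.28-fold) on 209613_s_at. The corresponding Hep-3B differences were -0.04 (SE 0.18), with overlapping arrays, and 0.22 (SE 0.12), with the knockdown arrays just above. The gap between the lines was thus wider among shKLHL23 arrays, at 3.09 (SE 0.18) and 3.37 (SE 0.12) for the 2 probe sets, than among shLuc arrays.

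The other ADH1B probe sets did not share this pattern. Values of 209614_at ran from 2.48 to 2.83 over the 8 arrays and those of 243544_at from 1.96 to 2.23, all below the lower quartile. Their knockdown differences in Huh7 were -0.14 (SE 0.12) and 0.09 (SE 0.11), and their differences between Huh7 shLuc and Hep-3B shLuc were 0.13 (SE 0.12) and 0.04 (SE 0.11).

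ADH1A and ADH1C, the closest relatives of ADH1B, showed small differences at dim signals. ADH1A (207820_at) measured 2.73 and 3.06 in Huh7 shKLHL23, 2.54 and 2.70 in Huh7 shLuc, 2.51 and 2.71 in Hep-3B shKLHL23, and 2.65 and 2.61 in Hep-3B shLuc. ADH1C (206262_at) measured 3.17 and 3.47 in Huh7 shKLHL23, 2.98 and 2.92 in Huh7 shLuc, 2.99 and 2.83 in Hep-3B shKLHL23, and 2.89 and 2.80 in Hep-3B shLuc. On both probe sets the Huh7 shKLHL23 arrays were the highest, and the other groups overlapped or nearly met.

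The Huh7 knockdown difference was 0.27 (SE 0.13) for ADH1A and 0.37 (SE 0.12) for ADH1C, and the Hep-3B one -0.02 (SE 0.13) and 0.06 (SE 0.12). The Huh7 values were 0.11 and 0.22 without Huh7 shKLHL23 replicate 3, and 0.43 and 0.52 without replicate 1. The control lines differed by -0.01 (SE 0.13, limma adjusted p = 0.986) for ADH1A and by 0.11 (SE 0.12, limma adjusted p = 0.614) for ADH1C. Class I transcripts are nearly identical in sequence. The suffix of the ADH1B probe sets 209612_s_at and 209613_s_at marks oligonucleotides that may match several transcripts, so how signal divides among the 3 genes is uncertain. Other family probe sets, both of ADH6 among them, carry the same suffix.

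ADH4, the class II enzyme, was highest in Hep-3B shKLHL23 and Huh7 shLuc, which was not the order seen for ADH1B. On 231678_s_at it measured 6.93 and 7.53 in Huh7 shKLHL23, 8.49 and 8.73 in Huh7 shLuc, 8.38 and 8.95 in Hep-3B shKLHL23, and 6.81 and 6.66 in Hep-3B shLuc. Hep-3B shKLHL23 and Huh7 shLuc shared the top and overlapped, Huh7 shKLHL23 came next, and Hep-3B shLuc was lowest with no overlap. On 223781_x_at it measured 5.97 and 6.59 in Huh7 shKLHL23, 7.05 and 6.95 in Huh7 shLuc, 6.68 and 6.99 in Hep-3B shKLHL23, and 5.72 and 6.05 in Hep-3B shLuc. There the upper pair of groups overlapped, as did the lower pair, and no array of one pair reached the other.

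Control cells differed in ADH4 by 1.88 (SE 0.22, 3.67-fold) on 231678_s_at, higher in Huh7 shLuc than in Hep-3B shLuc. The same contrast was 1.11 (SE 0.20, 2.17-fold) on 223781_x_at. Whether the oligonucleotides of either probe set also match other transcripts was not examined. Among shKLHL23 arrays the sign was the opposite, with Huh7 minus Hep-3B at -1.43 (SE 0.22) and -0.55 (SE 0.20).

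Within Huh7 the ADH4 arrays with shKLHL23 lay below those with shLuc, with log2 differences of -1.38 (SE 0.22, a ratio of 0.384) on 231678_s_at and -0.72 (SE 0.20) on 223781_x_at. Leaving out 1 Huh7 shKLHL23 array made the second value -0.40 (without replicate 1) or -1.03 (without replicate 3). Within Hep-3B the shKLHL23 arrays lay above those with shLuc, by 1.93 (SE 0.22, 3.81-fold, the value behind the choice of the family) and 0.95 (SE 0.20, 1.93-fold). The dim probe sets 231675_s_at (2.27 to 2.68 over the 8 arrays) and 231703_s_at (2.04 to 2.57) had knockdown differences of -0.04 and -0.16 in Huh7 and of 0.04 and 0.08 in Hep-3B. Their control lines differed by 0.07 (SE 0.15) and 0.27 (SE 0.13).

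A measure of RNA quality moved in the same direction as ADH4 in each line. The 3′ minus 5′ log2 difference of the ACTB control probe sets was 0.52 and 0.55 in Huh7 shKLHL23 against 0.87 and 0.83 in Huh7 shLuc, and 0.74 and 0.75 in Hep-3B shKLHL23 against 0.44 and 0.54 in Hep-3B shLuc. For GAPDH it was 0.15 and 0.11 in Huh7 shKLHL23 against 0.13 and 0.09 in Huh7 shLuc, and 0.22 and 0.24 in Hep-3B shKLHL23 against 0.12 in both Hep-3B shLuc arrays. Between control cells the ACTB measure was also higher in Huh7 shLuc than in Hep-3B shLuc, while the GAPDH measure overlapped. The part of RNA quality in the ADH4, ADH5 and ADH6 values, their differences between control cells included, was not tested.

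ADH6 had the largest difference between the control lines among the 15 probe sets. Probe set 214261_s_at measured 9.64 and 9.79 in Huh7 shKLHL23, 10.46 and 10.48 in Huh7 shLuc, 8.15 and 8.61 in Hep-3B shKLHL23, and 7.69 and 7.87 in Hep-3B shLuc. Probe set 207544_s_at measured 8.33 and 8.46 in Huh7 shKLHL23, 8.96 and 8.87 in Huh7 shLuc, 6.95 and 7.27 in Hep-3B shKLHL23, and 6.90 and 6.85 in Hep-3B shLuc. Both gave the order Huh7 shLuc, Huh7 shKLHL23, Hep-3B shKLHL23 and Hep-3B shLuc, and no 2 neighbouring groups overlapped.

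ADH6 was higher in Huh7 shLuc than in Hep-3B shLuc by 2.69 (SE 0.15, limma adjusted p = 2.16e-06, 6.45-fold) on 214261_s_at and by 2.04 (SE 0.12, limma adjusted p = 3.69e-06, 4.12-fold) on 207544_s_at. Among shKLHL23 arrays the lines were closer, at 1.33 (SE 0.15, 2.52-fold) and 1.29 (SE 0.12, 2.44-fold). The knockdown arrays lay below shLuc in Huh7, at log2 differences of -0.76 (SE 0.15, a ratio of 0.593) and -0.52 (SE 0.12), and above shLuc in Hep-3B, at 0.60 (SE 0.15, 1.52-fold) and 0.23 (SE 0.12). The Hep-3B values depended on single arrays: without Hep-3B shKLHL23 replicate 1 they were 0.83 and 0.39, and without replicate 3 they were 0.37 and 0.07.

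ADH5, the formaldehyde-oxidising member, varied least among the genes above the array median. Probe set 208847_s_at measured 10.59 and 10.78 in Huh7 shKLHL23, 11.02 and 11.04 in Huh7 shLuc, 10.85 and 10.78 in Hep-3B shKLHL23, and 10.68 and 10.74 in Hep-3B shLuc. Probe set 208848_at measured 9.43 and 9.66 in Huh7 shKLHL23, 10.17 and 10.18 in Huh7 shLuc, 9.47 and 9.48 in Hep-3B shKLHL23, and 9.35 and 9.49 in Hep-3B shLuc. Huh7 shLuc was highest on both, and the other 3 groups overlapped or lay close together.

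On 208848_at ADH5 was higher in Huh7 shLuc than in Hep-3B shLuc by 0.76 (SE 0.11, limma adjusted p = 0.000851, 1.69-fold). On 208847_s_at the difference of 0.31 (SE 0.10, limma adjusted p = 0.0531) missed the threshold, and its adjusted p ran between 0.00537 and 0.231 over the alternative settings. In Huh7 the shKLHL23 arrays lay below shLuc, with log2 differences of -0.63 (SE 0.11, a ratio of 0.646) on 208848_at and -0.34 (SE 0.10) on 208847_s_at. In Hep-3B the differences were 0.06 (SE 0.11), with overlapping arrays, and 0.10 (SE 0.10), with the shKLHL23 arrays just above.

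ADH7, the enzyme of the upper digestive lining, was dim. Probe set 210505_at measured 2.98 and 2.81 in Huh7 shKLHL23, 2.84 and 2.79 in Huh7 shLuc, 2.97 and 3.26 in Hep-3B shKLHL23, and 2.57 and 2.74 in Hep-3B shLuc. Only the Hep-3B shKLHL23 array of replicate 3 reached the lower quartile of its array. The knockdown difference was 0.08 (SE 0.13) in Huh7, with overlapping arrays, and 0.45 (SE 0.13) in Hep-3B, where it was 0.31 without Hep-3B shKLHL23 replicate 3 and 0.60 without replicate 1. The control lines differed by 0.16 (SE 0.13, limma adjusted p = 0.445).

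Over the 15 probe sets, 3 differed past 2-fold between shKLHL23 and shLuc in Huh7, against 1.06% of all probe sets. They were ADH1B 209612_s_at and 209613_s_at upward and ADH4 231678_s_at downward. In Hep-3B 1 did so, ADH4 231678_s_at upward, against 0.635% of all. Without Hep-3B shKLHL23 replicate 1 or Hep-3B shLuc replicate 3, 2 did so in Hep-3B, with ADH4 223781_x_at added. Arrays of the groups did not overlap for 11 probe sets in Huh7 (4 above shLuc, 7 below), where 49.2% of all probe sets did not, and for 7 in Hep-3B (all above), where 49.8% did not. In 5 probe sets, both of ADH6, the 2 bright ones of ADH4 and 208847_s_at of ADH5, the shKLHL23 arrays were above shLuc in Hep-3B and below it in Huh7, against 3.96% of all probe sets. The median difference was -0.14 in Huh7 (0.007 over all probe sets) and 0.08 in Hep-3B (0.008 over all). These counts come from the contrasts that led to the family and support nothing about it.

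**Figure D3:**
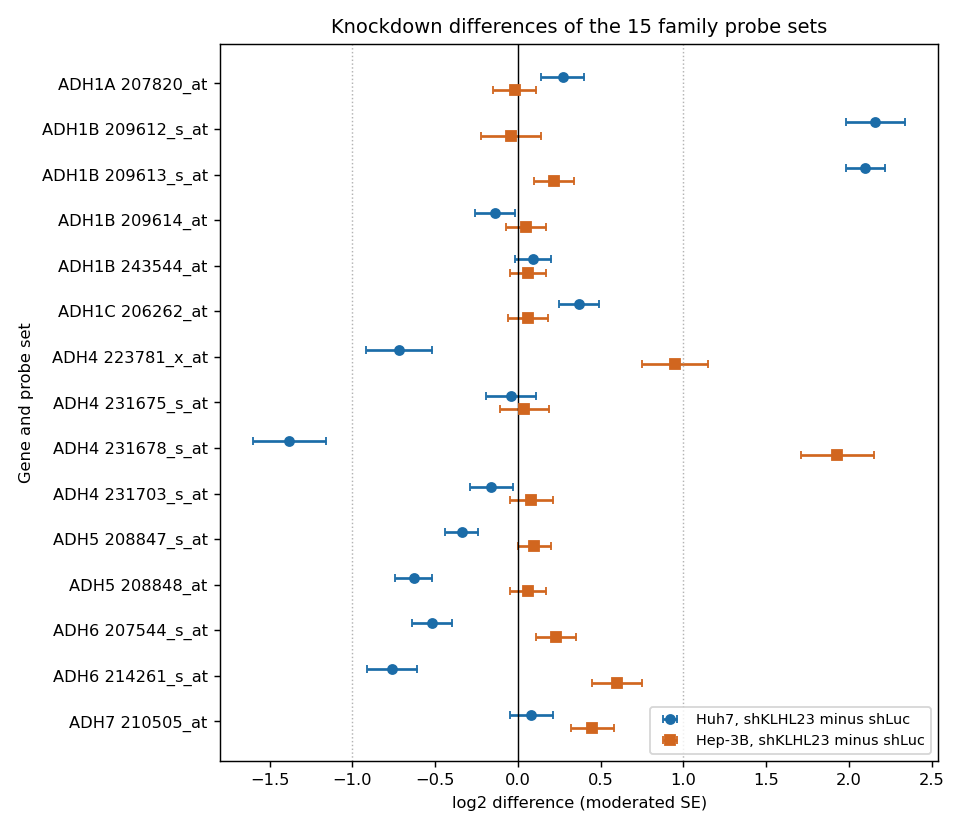
Log2 differences between shKLHL23 and shLuc for the 15 family probe sets in Huh7 (circles) and Hep-3B (squares), with moderated standard errors from limma and 2 arrays per group, and dotted lines at a 2-fold difference. The 2 brightest of the ADH1B probe sets lie near 2 in Huh7 only (2.16 and 2.10), and ADH4 231678_s_at lies at -1.38 in Huh7 and 1.93 in Hep-3B.

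Genes of connected pathways were counted to place the family among the enzymes it works with. The 5 lists held 79 genes, 70 of which were measured by a probe set of their own. The lists were chosen with earlier results of these data known, so their shares of called genes support nothing about the pathways. In Huh7, 16 of the 70 (22.9%) changed with shKLHL23, 4 higher and 12 lower, against 13.5% of all 19775 genes. In Hep-3B 1 changed (1.43%), against 0.693% of all genes. Between control cells 34 changed (48.6%), 21 higher and 13 lower in Huh7 shLuc, against 32.7% of all genes. The Huh7 knockdown count was 2 when either Huh7 shLuc array was left out, and 9 when either Hep-3B shLuc array or Huh7 shKLHL23 replicate 1 was left out. Of the Huh7 genes given by name, ALDH1B1 kept its call in all 16 alternative settings, and the others in 6 to 14 of 15 or 16.

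The aldehyde and acetate list (19 measured) holds the enzymes that take up the products of the family. In Huh7, ALDH1B1, a mitochondrial enzyme that oxidises acetaldehyde, rose with shKLHL23, at 8.27 on both arrays against 7.34 and 7.41 with shLuc (log2 difference 0.89, SE 0.11, limma adjusted p = 0.00264). ALDH4A1, which acts in proline breakdown, rose by 0.60 (SE 0.12, limma adjusted p = 0.0133) and ALDH3A1, which oxidises aromatic and fatty aldehydes, fell by 0.47 (SE 0.13, limma adjusted p = 0.0452). ALDH2, the main mitochondrial enzyme for acetaldehyde, had a difference of -0.03 (SE 0.10, limma adjusted p = 0.893) in Huh7 and of 0.22 (SE 0.10, limma adjusted p = 0.295) in Hep-3B. In Hep-3B 0 of the 19 passed the limma test. An unadjusted limma p under 0.05 was seen for 7 of them and for 3491 of all 19775 genes. ALDH8A1, singled out after its values were seen, had a Hep-3B difference of 1.51 (SE 0.35, limma adjusted p = 0.0798). The list's median difference was 0.13 in Huh7 and 0.16 in Hep-3B, against 0.022 over all genes in Hep-3B.

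Between control cells 11 of the 19 measured genes of the aldehyde and acetate list differed, 9 higher and 2 lower in Huh7 shLuc. Over all genes 32.7% differed in either direction. The list median was 0.47, against 0.018 over all genes. The 3 highest were ALDH6A1 of valine breakdown (1.99, SE 0.12, limma adjusted p = 3.93e-06), ALDH3A1 (1.71, SE 0.13, limma adjusted p = 1.75e-05) and ALDH1A1, which oxidises retinal and acetaldehyde in the cytosol (1.24, SE 0.08, limma adjusted p = 9.09e-06). ALDH2 was higher by 0.62 (SE 0.10, limma adjusted p = 0.00139). The lower pair was ACSS1, which activates acetate in mitochondria (-0.84, SE 0.09, limma adjusted p = 0.000148), and ALDH1B1 (-0.78, SE 0.11, limma adjusted p = 0.000559). Of the 5 ACSS1 probe sets 4 had this sign, and the mean of the 5 gave -0.34 (limma adjusted p = 0.0185).

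Of 9 other genes of ethanol and formaldehyde handling, AKR1B10, a reductase of aldehydes and retinal, had the widest gap between control cells, with 5.42 and 5.24 in Huh7 shLuc against 11.19 and 11.16 in Hep-3B shLuc (log2 difference -5.85, SE 0.23, limma adjusted p = 3.95e-07). In Huh7 it was 6.17 and 6.98 with shKLHL23, higher than shLuc by 1.24 (SE 0.23, limma adjusted p = 0.0114), while CBR4, a mitochondrial quinone reductase, fell by 0.43 (SE 0.10, limma adjusted p = 0.0285). HSD17B10 and CBR4 were higher in Huh7 shLuc than in Hep-3B shLuc, by 1.31 (SE 0.10, limma adjusted p = 1.9e-05) and 0.49 (SE 0.10, limma adjusted p = 0.00586). The 3 probe sets of CBR4 disagreed, and their mean gave -0.18 for the Huh7 knockdown (limma adjusted p = 0.54) and 0.03 between control cells (limma adjusted p = 0.928). In Hep-3B 0 of the 9 changed with shKLHL23 by limma. An unadjusted limma p under 0.05 was seen for 2 of them and for 3491 of all 19775 genes.

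The retinoid list (22 measured) had 4 genes lower and 0 higher in Huh7 with shKLHL23, where 13.5% of all genes were called in either direction. The 3 largest were RARA, a retinoic acid receptor (-0.53, SE 0.09, limma adjusted p = 0.00789, with 3 of its 5 probe sets of the same sign and limma adjusted p = 0.489 for their mean), RDH12 (-0.49, SE 0.13, limma adjusted p = 0.0351) and DHRS3 (-0.38, SE 0.09, limma adjusted p = 0.0307), reductases of retinal. In Hep-3B 0 changed by limma. An unadjusted limma p under 0.05 was seen for 8 of the 22 and for 3491 of all 19775 genes. Between control cells 4 were higher and 5 lower in Huh7 shLuc, where 32.7% of all genes were called in either direction. The higher ones included the receptor RARB (1.88, SE 0.22, limma adjusted p = 0.00022), the plasma carrier RBP4 (1.04, SE 0.14, limma adjusted p = 0.000419) and DHRS3 (0.85, SE 0.09, limma adjusted p = 0.000168). Of the 5 RARB probe sets 4 had this sign, and the mean of the 5 gave 0.71 (limma adjusted p = 0.00031). The lower ones included the binding protein CRABP2 (-0.76, SE 0.11, limma adjusted p = 0.000809), RDH12 (-0.59, SE 0.13, limma adjusted p = 0.00597) and RETSAT (-0.48, SE 0.13, limma adjusted p = 0.0199).

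Of 10 other medium-chain dehydrogenases and reductases, which share the family's fold, CRYZ rose by 0.45 in Huh7 with shKLHL23 (SE 0.09, limma adjusted p = 0.0124). PTGR2 fell by 0.55 (SE 0.10, limma adjusted p = 0.0113), RTN4IP1 fell by 0.45 (SE 0.11, limma adjusted p = 0.0286) and PTGR3 fell by 0.36 (SE 0.09, limma adjusted p = 0.0315). In Hep-3B 0 changed by limma. An unadjusted limma p under 0.05 was seen for 0 of the 10, against 3491 of all 19775 genes. In control cells PTGR2 (1.25, SE 0.10, limma adjusted p = 2.72e-05) and RTN4IP1 (0.84, SE 0.11, limma adjusted p = 0.00039) were higher in Huh7 shLuc. PTGR1 (-0.94, SE 0.11, limma adjusted p = 0.00022), CRYZ (-0.83, SE 0.09, limma adjusted p = 0.000112) and TP53I3 (-0.71, SE 0.14, limma adjusted p = 0.00473) were lower.

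The list of factors known to bind liver ADH promoters (10 measured of 12) had 3 genes lower and 0 higher in Huh7 with shKLHL23, and a median difference of -0.31. Over all genes 13.5% were called in this contrast in either direction. CEBPB, a leucine zipper factor of the liver, measured 10.59 and 11.03 in Huh7 shKLHL23 against 11.86 and 11.93 in Huh7 shLuc (fell by 1.08, SE 0.24, limma adjusted p = 0.0209). FOXA1 fell by 0.51 (SE 0.09, limma adjusted p = 0.00941; 0.145 for the mean of its probe sets) and CTCF fell by 0.33 (SE 0.08, limma adjusted p = 0.0348). In Hep-3B CEBPD was lower with shKLHL23, at 7.36 and 7.17 against 7.93 and 7.91 with shLuc (log2 difference -0.65, SE 0.11, limma adjusted p = 0.0399), a call kept in 7 of 16 alternative settings, with adjusted p between 0.00924 and 0.269. CEBPB in Hep-3B had a difference of -1.0 (SE 0.24, limma adjusted p = 0.0858), close in size to that in Huh7.

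In control cells CEBPD was the factor with the widest gap, at 9.73 and 9.75 in Huh7 shLuc against 7.93 and 7.91 in Hep-3B shLuc (log2 difference 1.82, SE 0.11, limma adjusted p = 3.58e-06). SP1 (0.58, SE 0.11, limma adjusted p = 0.00309) and FOXA2 (0.50, SE 0.12, limma adjusted p = 0.00957) were higher too, and so was CEBPA (0.48, SE 0.12, limma adjusted p = 0.0137). For FOXA2, 2 of 3 probe sets had this sign, and the mean of the 3 gave 0.26 (limma adjusted p = 0.0549). FOXA3 was lower (-0.34, SE 0.10, limma adjusted p = 0.0239). FOXA1 was lower (-0.36, SE 0.09, limma adjusted p = 0.0132), but the mean of its 2 probe sets gave 0.37 (limma adjusted p = 0.0545).

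**Figure D4:**
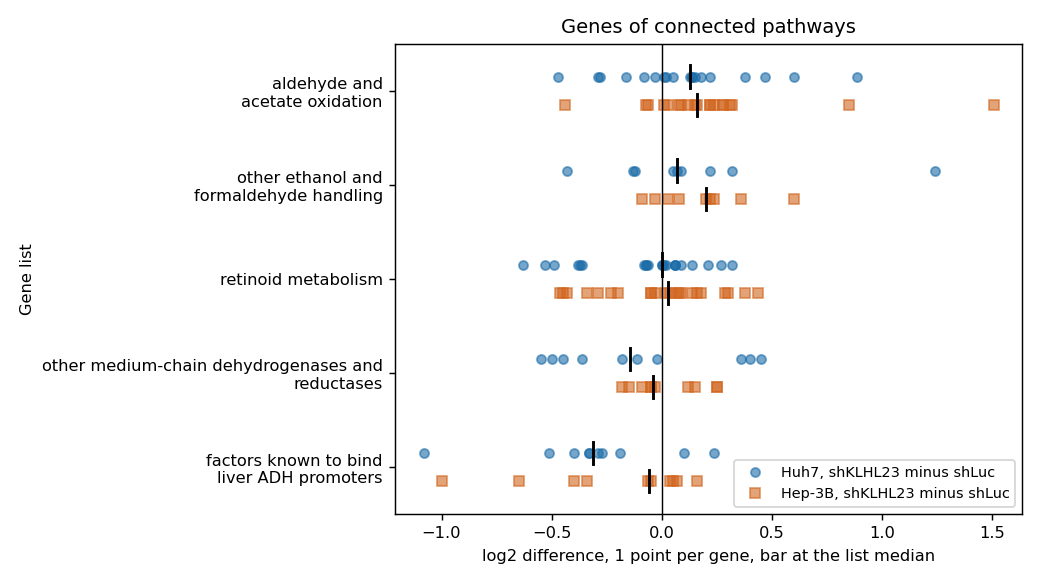
Log2 differences between shKLHL23 and shLuc for 70 genes in 5 pathway lists, with a point per gene for Huh7 (circles) and Hep-3B (squares) and a bar at each list's median. The factors known to bind liver ADH promoters have the lowest Huh7 median (-0.31), and CEBPB lies near -1 in both lines (-1.08 and -1.0).

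The genes beside the cluster were examined as well, 5 protein-coding genes on each side in the RefSeq order. In Huh7 with shKLHL23, 3 of these 10 fell and 0 rose by limma, against 13.5% of all genes called in either direction. MTTP, which loads lipid onto apolipoprotein B in the liver and lies on the ADH7 side, fell by 1.05 (SE 0.14, limma adjusted p = 0.00363), TRMT10A fell by 0.86 (SE 0.19, limma adjusted p = 0.0216) and METAP1, next to ADH5, fell by 0.36 (SE 0.09, limma adjusted p = 0.0333). In Hep-3B 0 of the 10 changed by limma (0.693% of all genes did). An unadjusted limma p under 0.05 was seen for 1 of them and for 3491 of all 19775 genes. MTTP had a difference of 0.42 in Hep-3B (SE 0.14, limma adjusted p = 0.164). MTTP was higher in Huh7 shLuc than in Hep-3B shLuc by 1.42 (SE 0.14, limma adjusted p = 7.94e-05), and 4 of the 10 were called in that contrast, against 32.7% of all genes. RAP1GDS1 (-0.30, SE 0.09, limma adjusted p = 0.0286), TSPAN5 (-0.43, SE 0.12, limma adjusted p = 0.0257) and EIF4E (-0.74, SE 0.10, limma adjusted p = 0.000386) were lower there, opposite in sign to the called family probe sets.

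Likeness of pattern was measured as the root mean square difference between log2 values over the 8 arrays, after centring each gene on its own mean, for the 3 members whose chosen probe set spanned at least 1 log2 unit. The genes nearest to ADH1B were TTC22 (0.40), C6, a complement component (0.41), and TMSB4X, an actin-binding peptide (0.47). They did not share every difference. Between control cells C6 differed by 0.17 (SE 0.14), against 1.57 (SE 0.13) for TTC22 and 1.87 (SE 0.09) for TMSB4X. Nearest to ADH4 were SLC23A1, a vitamin C transporter (0.48), CRYBG1 (0.53) and HMGCS1, an enzyme of sterol synthesis (0.54). Their Huh7 knockdown differences were -0.85 (SE 0.2) for SLC23A1, -0.08 (SE 0.19) for CRYBG1 and -0.2 (SE 0.21) for HMGCS1. ADH6 had closer neighbours, the methyltransferase SETD7 (0.19), the corepressor CTBP2 (0.22) and FRMD4A (0.22).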

How the data were processed

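The deposited table holds log2 values, and the submitters' processing notes name RMA and Affymetrix Expression Console 1.2. RMA equalises the arrays' distributions and compresses differences of dim probe sets, and a change in total RNA per cell would be hidden. Names of probe sets are those of GEO's platform annotation (41097 with 1 symbol, 1801 with several, 11777 unnamed). Members and gene lists were chosen with earlier results of these data known.

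With limma 3.58.1 in R 4.3.3, a mean per group was fitted to all 8 arrays (lmFit, eBayes, 4 residual degrees of freedom), with Benjamini-Hochberg adjustment over all 54675 probe sets for members and over 19775 genes for pathway and neighbouring genes. Each gene was represented by its own probe set with the highest mean. A call needed an adjusted p under 0.05, SE is the moderated standard error, and the number of arrays limits the precision. The procedure was tested on simulated data. All members were named, with up to 3 called genes per list and direction, 3 genes nearest in pattern, and 5 neighbours per side. ALDH2, ALDH8A1, CEBPA and Hep-3B values of CEBPB were added after their values were seen. Of 79 listed genes 9 had no probe set of their own. The alternatives were another normalization, eBayes prior, array weights, fewer groups, a level filter, other probe set choices, the replicate number as a block, and leaving out each array. The labels also name an shEV virus, not analysed here.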

Additional observations from a re-analysis of the deposited data

Results flagged for a closer look

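Listed here are family probe sets whose knockdown arrays in Huh7 and Hep-3B lay on opposite sides of the shLuc mean of their own line. Both knockdown arrays of each line had to do so. The share of all probe sets that met this rule was not counted, so the list supports nothing about the family as a whole. The values given are the Huh7 difference between shKLHL23 and shLuc minus the Hep-3B one, on the log2 scale. The difference between the lines was not tested, since the family was picked with knockdown differences known. ADH4 had -3.31 on 231678_s_at, -1.67 on 223781_x_at and -0.24 on the dim 231703_s_at. ADH6 had -1.35 on 214261_s_at and -0.76 on 207544_s_at. ADH5 had -0.69 on 208848_at and -0.45 on 208847_s_at. ADH1B stood on the other side of 0, with 2.20 on 209612_s_at, although its Hep-3B difference was only -0.04 with overlapping arrays. For 208848_at of ADH5 and 231703_s_at of ADH4 the arrays of the Hep-3B groups overlapped too.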

How the results depend on the processing

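All 7 family probe sets called (ADH1B and ADH4 included) between Huh7 shLuc and Hep-3B shLuc were called in every alternative that tested them. Their number was 7 to 8 with single arrays left out and 4 with 1 probe set per gene, which tests fewer probe sets. The count of family probe sets past 2-fold with shKLHL23 was 3 to 4 in Huh7 and 1 to 2 in Hep-3B with single arrays left out (ADH4 223781_x_at was added, at up to 1.12). Pathway genes called in Huh7 numbered 16, with 2 to 17 when single arrays were left out and 10 when only the 2 groups compared were fitted, which leaves fewer samples. In Hep-3B the 1 called gene became 0 to 7 when single arrays were left out (7 without Hep-3B shKLHL23 replicate 1), 4 with an intensity trend and robust prior, 4 with array weights, 2 with a mean of at least 5, 0 with only the 2 groups and 0 with a gene's probe sets averaged, and the cause was not tested. Between control cells it was 25 to 36 with single arrays left out. The FOXA1 difference between control lines turned to 0.37 with the mean of its probe sets, which disagree. Of 40 named pathway results 19 kept their call throughout and 21 lost it in at least 1 alternative, the reversed FOXA1 included. With the replicate number as a block, the family counts were 7, 3 and 1, and the Hep-3B pathway count was 4. Differences between replicates 3 and 1, over all probe sets, correlated at 0.053 between Huh7 shKLHL23 and shLuc. The correlation was -0.035 between Hep-3B shKLHL23 and shLuc and -0.041 between Huh7 shLuc and Hep-3B shLuc. Whether equal numbers mark a shared culture or batch cannot be told from these values or from the labels. Dim probe sets limit what can be seen for ADH1A, ADH1C and ADH7.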
